A study of Mus musculus with 17 samples.

Results

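The immunoglobulin gene segments of peritoneal AB12 tumors were described here as they were read in bulk RNA-Seq. The set was defined by annotation and by measured abundance: of the 55450 genes counted, 265 were an immunoglobulin V, D, J or constant (C) segment of Gencode vM21 or the joining chain gene Jchain, and the 207 whose counts summed to at least 20 over all 17 tumors were kept. These were 89 of 113 heavy chain V segments (IGHV), 90 of 102 kappa V segments (IGKV), all 3 lambda V segments (IGLV), 4 of 4 heavy, 5 of 5 kappa and 3 of 5 lambda J segments, 8 of 8 heavy constant genes, the kappa constant gene Igkc, 3 of 4 lambda constant genes and Jchain. None of the 19 heavy chain D segments, which are only a few codons long, reached the minimum. Of the 58 segments left out, 25 had no count in any tumor. Because summed counts chose the members, their presence is a description: Ighv3-4 with 21 counts and Ighv15-2 and Gm43218 with 22 each lay just inside the minimum, and Igkv4-71 and Igkv4-78 with 19 and Igkv18-36 with 16 just outside.

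The tumors grew after intraperitoneal injection of 100000 AB12 mouse mesothelioma cells into female BALB/c mice aged 8 weeks, so every group carried the same tumor and there was no tumor-free control. Groups of 3, 5 and 3 untreated tumors were taken 6, 10 and 14 days after injection (d6, d10 and d14). Groups of 3 tumors each were taken on d10 and d14 from mice given the CTLA-4 blocking antibody 9D9 (200 µg per injection, intraperitoneal, 4 injections in the full protocol). The treated d14 tumors came from mice injected on d6 and d10. The injection days of the treated d10 tumors are not given in the sources used here. Each library came from a separate mouse and held 46371577 to 96759833 counted reads. The mesothelial genes Msln and Krt19 were high in all tumors, at 175 to 636 and 336 to 1113 normalized CPM, which are counts scaled to the effective size of each library.

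B cells build each antibody gene by joining 1 V, (in the heavy chain) 1 D and 1 J segment, and splice that exon to a constant gene. The V segment largely determines what the antibody binds, and the constant gene sets its class: Ighm encodes IgM, Ighd IgD, the Ighg genes IgG, Igha IgA and Ighe IgE. Class switching swaps Ighm for another constant gene, and plasma cells transcribe the rearranged genes at very high levels, so the abundance of immunoglobulin RNA in a tissue piece follows plasma cells more than resting B cells. The peritoneal cavity is a known home of B-1 cells, a lineage making natural IgM, in which the heavy chain V segment Ighv11-2 (VH11) is typically paired with the kappa segment Igkv14-126 (Vk9) and Ighv12-3 (VH12) with Igkv4-91 (Vk4), pairings known from antibodies to the membrane lipid phosphatidylcholine.

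The segments on which the results turned are given below with the end of their V exon, 5′ to 3′ on the coding strand, where the capitals mark the codon of the conserved cysteine that opens the antigen-binding CDR3 loop. Sequences and coordinates are those of the Gencode vM21 transcripts on GRCm38, which is a C57BL/6 genome, while the mice were BALB/c. The first 4 are the B-1 pairs, shown because the tumors grew in the cavity where such cells live. The heavy segments lie on the minus strand at chr12:114048241-114048311 (Ighv11-2) and chr12:114366521-114366594 (Ighv12-3), and the kappa segments at chr6:67896557-67896642 (Igkv14-126, plus strand) and chr6:68768555-68768642 (Igkv4-91, minus strand).
Ighv11-2: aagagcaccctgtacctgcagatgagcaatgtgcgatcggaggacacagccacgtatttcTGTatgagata
Igkv14-126: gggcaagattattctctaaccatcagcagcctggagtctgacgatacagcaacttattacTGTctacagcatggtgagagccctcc
Ighv12-3: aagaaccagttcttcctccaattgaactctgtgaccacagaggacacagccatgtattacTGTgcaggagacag
Igkv4-91: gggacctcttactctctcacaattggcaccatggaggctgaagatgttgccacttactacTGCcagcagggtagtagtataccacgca

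The next 8 were the most abundant V segment of their locus in at least 1 tumor, or rose in treated d14 tumors. They are a selection: Ighv10-1, for example, held 27.3% of IGHV counts in untreated d10 tumor 4 and is not printed. They lie at chr12:113896408-113896482 (Ighv7-1), chr12:114153180-114153252 (Ighv7-3), chr12:114391712-114391779 (Ighv6-3), chr12:114657353-114657421 (Ighv1-15), chr6:68437840-68437925 (Igkv15-103), chr6:68736297-68736382 (Igkv19-93), chr6:70406469-70406554 (Igkv6-15) and chr6:70457501-70457586 (Igkv6-13). All but Igkv15-103 are on the minus strand.
Ighv7-1: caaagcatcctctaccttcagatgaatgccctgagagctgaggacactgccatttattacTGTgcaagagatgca
Ighv7-3: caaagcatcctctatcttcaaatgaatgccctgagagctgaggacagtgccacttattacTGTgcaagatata
Ighv6-3: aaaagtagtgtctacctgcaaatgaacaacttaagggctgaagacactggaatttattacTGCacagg
Ighv1-15: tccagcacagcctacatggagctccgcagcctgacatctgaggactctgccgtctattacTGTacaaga
Igkv15-103: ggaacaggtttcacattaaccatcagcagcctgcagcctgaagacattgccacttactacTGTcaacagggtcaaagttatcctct
Igkv19-93: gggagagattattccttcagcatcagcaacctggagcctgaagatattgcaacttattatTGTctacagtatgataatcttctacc
Igkv6-15: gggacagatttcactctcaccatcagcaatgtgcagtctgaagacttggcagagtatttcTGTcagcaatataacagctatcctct
Igkv6-13: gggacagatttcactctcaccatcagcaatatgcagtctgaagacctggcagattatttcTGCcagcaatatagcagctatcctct

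Some segments resemble each other closely enough to limit counting. Only uniquely mapped reads were counted, so a read pair that lies wholly inside a stretch that 2 genes share is lost to both. A pair that reaches beyond the stretch may still be counted. Ighv11-2 and its neighbor Ighv11-1 differ at only 4 of the 307 bases of the V exon (98.7% identity, longest identical run 162 bases). Their last 290 bases (chr12:114048241-114048530 and chr12:113981879-113982168) are shown with these differing bases in capitals.
Ighv11-2: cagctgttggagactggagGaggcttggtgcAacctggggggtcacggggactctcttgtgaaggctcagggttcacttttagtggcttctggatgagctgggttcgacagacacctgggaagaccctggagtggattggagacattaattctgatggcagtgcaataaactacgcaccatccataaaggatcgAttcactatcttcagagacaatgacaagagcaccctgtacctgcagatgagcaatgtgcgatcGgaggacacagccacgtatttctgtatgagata
Ighv11-1: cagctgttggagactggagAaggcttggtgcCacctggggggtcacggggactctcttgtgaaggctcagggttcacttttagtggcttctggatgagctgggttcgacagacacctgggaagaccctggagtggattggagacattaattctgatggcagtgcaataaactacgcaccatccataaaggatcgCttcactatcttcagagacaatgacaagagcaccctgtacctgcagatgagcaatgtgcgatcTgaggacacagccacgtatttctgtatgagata

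In windows of 75 bases, 24.8% of the Ighv11-2 transcript was identical to a stretch of Ighv11-1 and to no other gene. Across the members, 58 of 89 IGHV and 58 of 90 IGKV segments shared at least 1 window with another gene, but only 1 IGHV (Ighv1-72) and 3 IGKV segments (Gm43218, Igkv6-20 and Igkv8-16) shared more than 50% of theirs. Igkv14-126, Ighv12-3, Igkv4-91, Ighv7-1, Ighv7-3, Igkv15-103, Igkc, Ighm and Jchain shared none. In the heavy constant genes sharing was slight, at 0.768% of windows for Ighg2b, 0.48% for Ighg2c and 0.574% for Ighg3. Of the 3 lambda constant genes, 2 shared windows, and the median over the 3 was 0.931%. BALB/c mice are known to carry Ighg2a where the C57BL/6 reference has Ighg2c, so a count for Ighg2c holds those reads of the BALB/c gene that align there. The effect of BALB/c V haplotypes on the counts of single segments was not tested.

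The total amount of immunoglobulin RNA was high in d6 tumors, lower in untreated d14 tumors, and high again in d14 tumors after anti CTLA-4. Summed over all 207 members, normalized CPM were 1944, 2629 and 2726 in d6 tumors 1 to 3. In untreated d10 tumors 1 to 5 the sums were 1349, 1219, 242.0, 3257 and 940.5. Untreated d14 tumors held 825.4, 228.6 and 714.2. These values put every d6 tumor above every untreated d14 tumor, while the d10 tumors spanned both groups, from tumor 3, as low as a d14 tumor, to tumor 4, above all d6 tumors. Treated d10 tumors held 391.5, 483.6 and 335.2, which is below all untreated d10 tumors except tumor 3. Treated d14 tumors held 4378, 2373 and 2044, each above every untreated d14 tumor. As mean ± SD the sums were 2433 ± 426 at d6 (n = 3), 1402 ± 1122 at d10 (n = 5), 403 ± 74.9 in treated d10 tumors (n = 3), 589 ± 317 at d14 (n = 3) and 2932 ± 1263 in treated d14 tumors (n = 3). These sums are given without a test. In bulk tissue fewer B-lineage cells and less immunoglobulin RNA per cell cannot be told apart.

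**Figure D1:**
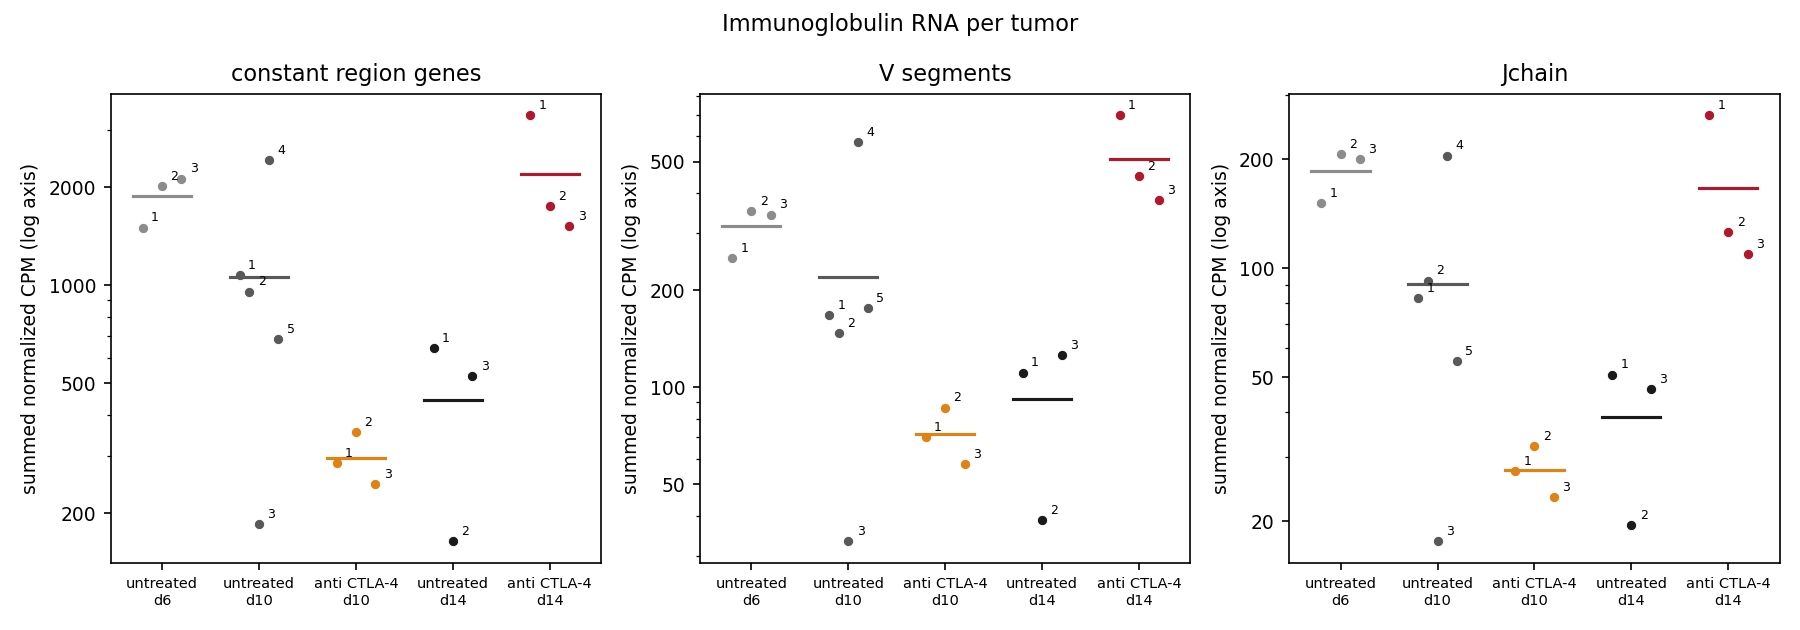
Summed normalized CPM (log axis) of the constant genes, the V segments and Jchain in each tumor, with the replicate number beside each point and a bar at the group mean. In all 3 panels the treated d14 tumors lie above the untreated d14 tumors, and untreated d10 tumors 3 and 4 mark the lowest and highest of their group.

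Constant genes held 71.6 to 79.5% of the immunoglobulin counts in every tumor, and V segments 12.1 to 19.0%. J segments are short and summed to 6.41 to 75.02 normalized CPM. Per kilobase of exon, which allows for the length of each gene, Igkc was the most abundant constant gene of untreated d14 tumors (median 332 normalized CPM per kilobase), followed by Ighm (101), with Jchain at 18.4, Igha at 17.3, Ighg1 at 11.5 and Ighe at 0.102. In treated d14 tumors the same order of the first 2 held, at 1052 for Igkc and 364 for Ighm, and Ighg1 came next at 118. Kappa was the main light chain throughout: lambda constant genes made up 2.32 to 6.88% of light chain constant counts.

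Between d6 and d14, untreated tumors lost immunoglobulin RNA across nearly all segment types. Of 128 members abundant enough to test, 70 fell and 2 rose (adjusted p below 0.05 and a change of more than 2-fold, edgeR quasi-likelihood test), where 8.81% of all 17172 genes tested fell and 10.2% rose. The median log2 fold change of the tested members was -1.61, and that of all tested genes 0.01. The members that fell included 24 of 43 tested IGHV and 31 of 62 IGKV segments, 1 of 3 IGLV segments, all 4 heavy J segments, 3 of 4 tested kappa J segments, all 3 lambda constant genes, Igkc, Jchain, Ighm and Igha. In 59 of the 128 members the 3 tumors of each day did not overlap, a smaller share than the 61.1% of all genes tested, so nothing is read from that count.

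Ighm, the IgM heavy chain, stood at 643, 985 and 807 normalized CPM in d6 tumors and 194, 65.4 and 190 in untreated d14 tumors, with no overlap. Its log2 fold change was -2.42 ± 0.36 (SE; adjusted p = 0.000732, edgeR quasi-likelihood test with Benjamini-Hochberg adjustment). Igkc, the constant region of nearly all light chains here, went from 711, 933 and 1030 to 235, 56.8 and 177 normalized CPM (log2 -2.50 ± 0.43, edgeR adjusted p = 0.00138). Jchain links IgM pentamers and IgA dimers and is made by antibody-secreting cells. It stood at 151, 207 and 200 normalized CPM at d6 and at 50.7, 19.5 and 46.2 at d14 (log2 -2.24 ± 0.31, edgeR adjusted p = 0.00046). Igha, the class of mucosal surfaces, was 93.7, 63.0 and 226 at d6 and 46.3, 31.3 and 58.0 at d14 (log2 -1.49 ± 0.42, edgeR adjusted p = 0.0169). The d6 tumors were the higher ones for each of these 4 genes. The call of Igha was lost without d6 tumor 3, where the log2 fold change was -0.78, and in 1 fit of all 5 groups. The lambda constant genes Iglc1, Iglc2 and Iglc3 fell by 1.47, 2.71 and 1.96 on the log2 scale. The call of Iglc3 was lost without d6 tumor 3 and that of Iglc1 in 1 fit of all 5 groups, and Iglc2 was at -3.44 without d14 tumor 3. Summed over the locus, heavy J segments ran from 12.3 to 22.8 normalized CPM at d6 and from 3.37 to 7.86 at d14, and kappa J segments from 25.1 to 31.7 and from 3.26 to 15.3, also without overlap.

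The 2 members that rose from d6 to d14 were both IgG genes. Ighg2c was below 1 normalized CPM in all d6 tumors (0.489, 0.423 and 0.850) and 4.02, 1.03 and 30.0 at d14 (log2 4.31 ± 1.11, edgeR adjusted p = 0.0104). Ighg1, the IgG class favored by IL-4 in mice, was 3.34, 1.27 and 7.21 at d6 and 141, 3.11 and 29.9 at d14 (log2 3.90 ± 1.15, edgeR adjusted p = 0.0199). For Ighg1 the groups overlapped, since d14 tumor 2 lay within the range of d6. Its fold change was 2.07 on the log2 scale without d14 tumor 1, and its call was lost in 4 of 12 alternatives (without d6 tumor 1, d6 tumor 2 or d14 tumor 1, and in 1 fit of all 5 groups). Ighg2c kept its call in all 12, with a log2 fold change of 2.13 without d14 tumor 3. Ighg3 (23.6, 4.07 and 19.7 against 3.87, 2.10 and 12.5), Ighg2b and Ighd did not pass the test, with log2 fold changes of -1.34, 0.70 and 0.30.

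Among the V segments with the largest decreases at a mean of at least 1 normalized CPM were Igkv1-88 (log2 -5.21 ± 0.75), Ighv3-8 (-5.00 ± 0.90), Igkv4-57-1 (-4.88 ± 0.89), Igkv15-103 (-4.01 ± 0.63) and Igkv4-91 (-3.62 ± 0.55), with edgeR adjusted p between 0.000603 and 0.00202. Single tumors moved these values while the calls were kept: without d14 tumor 3 Igkv1-88 was at -7.00, Igkv4-57-1 at -6.63 and Igkv15-103 at -5.02, without d6 tumor 3 Igkv4-57-1 was at -3.81, Ighv3-8 at -3.87 and Igkv4-91 at -2.83, and without d14 tumor 1 Ighv3-8 was at -5.69. Igkv15-103 was the most abundant of them, at 23.6, 77.1 and 42.9 normalized CPM at d6 and 1.08, 1.77 and 5.81 at d14. Both B-1 pairs held segments that fell. Ighv11-2 went from 2.49, 3.99 and 2.23 to 0.605, 1.02 and 1.08 normalized CPM (log2 -1.66 ± 0.31, edgeR adjusted p = 0.00229), and its kappa partner Igkv14-126 from 33.6, 52.6 and 27.1 to 4.47, 3.67 and 5.39 (log2 -3.04 ± 0.25, edgeR adjusted p = 5.23e-05). Igkv4-91 went from 5.38, 11.3 and 26.6 to 1.59, 0.967 and 0.926, whereas its partner Ighv12-3, at 0.311, 1.25 and 3.66 against 0.444, 0.413 and 0.644, did not pass (log2 -1.78 ± 0.69, edgeR adjusted p = 0.0571). Ighv11-1 had 8, 12 and 10 counts at d6 and none at d14, at least 17.4-fold lower when 3 counts over the group are taken as the limit that a count of 0 allows.

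The untreated d6 and d14 libraries also differed as sets. The annotated microRNA gene Mir6236 had 3387 to 4697 counts at d6 and 5 to 20 at d14, and in the d10 group 3964 to 12332 in tumors 1 to 3 but 176 and 141 in tumors 4 and 5, while it had 205 to 1244 in treated d10 libraries and 17 to 24 in treated d14 ones. For d6 against d14, library set and day cannot be told apart. At d10 the treated libraries overlapped neither untreated tumors 1 to 3 nor tumors 4 and 5 in Mir6236. The part of library set in the treatment results at d10, and in their comparison with d14, was not tested. The paper removed genes with a batch effect between sequencing projects. Here all genes were kept, and library set was not a term in the fits. Marker sums of other cells also moved between d6 and d14 without overlap. The 5 markers of lymph node or milky spot stroma, of which Clu made up most, summed to 118 to 119 normalized CPM at d6 and 56.3 to 77.1 at d14, and 4 adipocyte markers to 27.7 to 81.1 and 14.3 to 23.3. The 7 intestine markers summed to 37.8 to 49.3 and 17.2 to 22.0, nearly all of it Cdx2, with Muc2 at 0 in every tumor. The 4 T cell markers were lower at d6, at 27.3 to 30.2 against 42.8 to 78.3. The part of these differences in the immunoglobulin decrease was not tested.

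Around d10 few members passed. From d6 to d10, 9 of 142 tested members fell and none rose, where 2.66% of all genes tested fell and 4.79% rose. The median log2 fold change was -0.45, against 0.03 for all genes tested. The 9 were the heavy V segments Ighv1-11 (log2 -3.77 ± 0.47, edgeR adjusted p = 0.00093) and Ighv7-2, the kappa V segments Igkv4-91 (-2.62 ± 0.59, adjusted p = 0.0145), Igkv5-43 (-2.57 ± 0.70, adjusted p = 0.0319), Igkv1-88 (-2.52 ± 0.46, adjusted p = 0.0058), Igkv17-121, Igkv4-74 and Igkv6-14, and Igkj2, all from the edgeR test. Without d6 tumor 3 Igkv4-91 was at -1.82 and Igkv5-43 at -1.49, and neither passed. Igkv5-43 was at 15.95 normalized CPM in that tumor and at 3.62 and 3.83 in the other two d6 tumors, and its call was also lost without d6 tumor 1 or d10 tumor 2, 3 or 5. Ighv1-11 was at 7.09, 1.47 and 4.76 normalized CPM at d6, and its 5 d10 values ran from 0.175 to 0.418 with a median of 0.343. Ighm (log2 -1.02 ± 0.56, edgeR adjusted p = 0.231), Igkc (-1.01 ± 0.54, adjusted p = 0.228) and Jchain (-1.02 ± 0.55, adjusted p = 0.227) did not pass the edgeR test.

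The d10 tumors were unlike each other. With d10 tumors 1 to 3 alone, 43 members fell from d6 to d10 and none rose (3.05% and 5.72% of all genes tested). With d10 tumors 4 and 5 alone, which differ from them in Mir6236, 29 rose and 10 fell (7.41% and 9.29% of all genes). With the replicate number as a block, which leaves out d10 tumors 4 and 5, 33 members were called, all lower (2.89% of all genes were lower and 5.36% higher). The count also moved to 31, all lower, without d10 tumor 4 (2.82% of all genes were lower), to 3 without d10 tumor 2 and to 4 without d6 tumor 3. Tumor 4 had the highest B cell marker sum of all 17 tumors, at 393 normalized CPM over 19 genes against 82.8 to 178 in the others. Its Cxcl13, a chemokine of B cell follicles, was 89.7 normalized CPM. The part of these differences in the result was not tested.

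From d10 to d14, 5 of 133 tested members fell and none rose (3.45% and 3.78% of all genes tested). The median log2 fold change was -1.14, against -0.04 for all genes tested. The 5 were Igkv15-103 (log2 -3.57 ± 1.07), Ighv13-2, Ighv3-8, Igkv1-88 and Igkv12-41, named after their values were seen. Igkv15-103 ranged from 4.19 to 103 normalized CPM in the d10 tumors (median 17.3), and d14 tumor 3, at 5.81, lay inside that range. Without d10 tumor 3, whose total was the lowest of its group, 17 members fell (3.79% of all genes). Without d14 tumor 2 the count was 0, and without d14 tumor 1 only Ighv1-11 did, as higher. Leaving out d10 tumor 1 left 1 member, and leaving out d10 tumor 2 or d14 tumor 3 left 2. With the replicate block 2 were lower and 1 higher (5.34% and 3.76% of all genes). With d10 tumors 4 and 5 alone 42 were lower and none higher (3.62% and 6.74%). In 1 fit of all 5 groups 25 were lower (5.16% of all genes), and DESeq2 called 20 lower (4.43%).

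After anti CTLA-4, d14 tumors held more immunoglobulin RNA, with members of each tested segment type among those that rose. Of 147 tested members, 76 rose and 1 fell against untreated d14 tumors, where 9.06% of all 18062 genes tested rose and 2.4% fell. The median log2 fold change was 2.22, against -0.0043 for all genes tested, and 134 of the 147 had a positive sign. By segment, 32 of 56 tested IGHV, 27 of 66 IGKV and 2 of 3 IGLV segments rose, with all 4 heavy J segments, 4 of 5 kappa J segments, 3 of 8 heavy and 2 of 3 lambda constant genes, Igkc and Jchain. In 83 of the 147 the treated and untreated tumors did not overlap, a share near the 51.9% of all genes tested. The count was 49 without untreated tumor 1 and 51 without treated tumor 1.

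Ighm stood at 1848, 687 and 494 normalized CPM in treated tumors 1 to 3 and at 194, 65.4 and 190 in untreated ones (log2 2.79 ± 0.59, edgeR adjusted p = 0.0128). Treated tumor 1 was the highest of all 17 tumors for this gene. Igkc was 936, 560 and 504 against 235, 56.8 and 177 (log2 2.12 ± 0.49, edgeR adjusted p = 0.0162), and Jchain 265, 126 and 109 against 50.7, 19.5 and 46.2 (log2 2.14 ± 0.44, edgeR adjusted p = 0.0122). Neither gene overlapped between the groups. The call of Igkc was lost without treated tumor 1 (log2 1.82), and Ighm was at 2.04 without that tumor, with its call kept. Iglc1, at 26.3, 4.66 and 7.25 against 2.39, 1.11 and 3.50, passed (log2 2.48 ± 0.69, edgeR adjusted p = 0.0291), as did Iglc2, at 39.3, 4.52 and 8.65 against 1.56, 0.787 and 3.55 (3.18 ± 0.87, adjusted p = 0.0280, edgeR). Treated tumor 1 was far above the other two for both. Without it the log2 fold changes were 1.40 and 1.79, and both calls were lost, as they were without untreated tumor 1 or 2. Iglc2 was at 3.97 without untreated tumor 3. Iglc3 did not pass (1.18 ± 0.60, adjusted p = 0.162, edgeR). Heavy J segments summed to 15.7 to 34.2 normalized CPM in treated d14 tumors and kappa J segments to 20.5 to 40.5, above the untreated ranges given above.

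**Figure D2:**
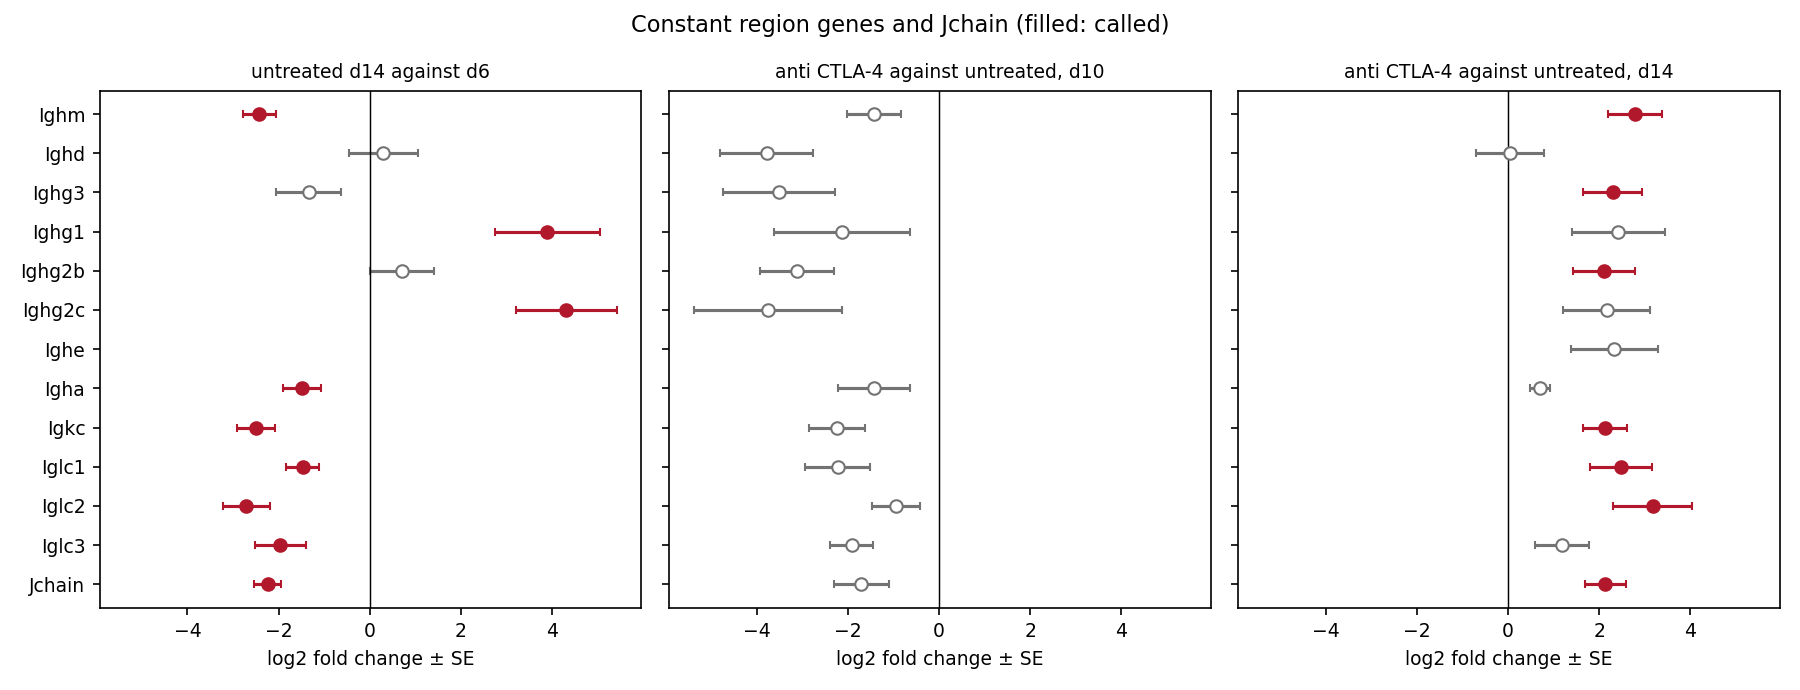
Log2 fold change with its standard error for the constant genes and Jchain in 3 comparisons (edgeR), filled where the adjusted p was below 0.05 and the change above 2-fold, and blank where a gene was too low to test. At d14 after anti CTLA-4 all estimates lie above 0, with Ighd at 0.05 (-0.27, -0.46 and 1.64 without untreated tumor 1, 2 and 3), and at d10 all lie below 0 and none is filled.

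Not every class passed the test. Of the 4 IgG genes, Ighg3 (21.8, 48.9 and 18.6 against 3.87, 2.10 and 12.5 normalized CPM) and Ighg2b (21.1, 20.2 and 36.1 against 9.85, 0.890 and 7.46) rose, by 2.30 ± 0.65 and 2.11 ± 0.68 on the log2 scale (edgeR adjusted p = 0.0308 and 0.0469). The call of Ighg3 was lost in 7 of 13 alternatives (without untreated tumor 1 or 2 or treated tumor 1 or 2 among them; it was at 3.38 without untreated tumor 3) and that of Ighg2b in 8 of 13 (without untreated tumor 1 or 3 or any treated tumor, and by DESeq2). Ighg1 was within a narrow band in treated tumors (315, 305 and 301) and scattered in untreated ones (141, 3.11 and 29.9). All treated tumors were higher, but the test did not pass (log2 2.42 ± 1.02, edgeR adjusted p = 0.102). The same held for Ighg2c, at 36.1, 49.7 and 68.6 against 4.02, 1.03 and 30.0 (log2 2.16 ± 0.96, edgeR adjusted p = 0.117). Ighe, which encodes the class that arms mast cells, was low throughout, at 2.20, 0.932 and 0.475 against 0.161, 0 and 0.544 (log2 2.33 ± 0.95, edgeR adjusted p = 0.0947). Each of these 3 passed in 2 alternatives. Without untreated tumor 1 the log2 fold change of Ighg1 was 4.25, and without untreated tumor 3 that of Ighg2c was 4.41 and that of Ighe 3.97, and all 3 passed. With other single tumors left out, none of the 3 passed. Ighg1 and Ighe also passed with all genes of at least 1 count tested, and Ighg2c with a replicate block.

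Igha changed by less than 2-fold, at 83.9, 58.5 and 72.5 against 46.3, 31.3 and 58.0 normalized CPM (log2 0.70 ± 0.22, edgeR adjusted p = 0.0469), with no overlap. Ighd, which naive mature B cells express along with Ighm, was 5.70, 5.13 and 5.07 against 2.66, 0.877 and 12.1 (log2 0.05 ± 0.75, edgeR adjusted p = 0.966). Without untreated tumor 1 or 2 its log2 fold change was -0.27 or -0.46, and without untreated tumor 3 it was 1.64 and passed the test. Read as counts of Ighm per count of Ighd, treated d14 tumors ran from 97.3 to 324 and untreated ones from 15.7 to 74.6, which do not overlap.

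As shares of the heavy chain constant counts, which do not depend on the total, IgM was the largest class in all tumors. Ighm made up 75.2 to 93.1% at d6, 47.7 to 90.1% at d10, 65.4 to 86.2% in treated d10, 48.3 to 62.5% in untreated d14 and 49.6 to 79.2% in treated d14 tumors. The 4 IgG genes together held 3.88, 0.773 and 3.17% in d6 tumors and 39.5, 6.81 and 23.4% in untreated d14 tumors, with no overlap. In treated d14 tumors they held 16.9, 36.0 and 42.6%, which overlaps the untreated d14 range. Among d10 tumors the IgG share was 1.58, 9.57 and 8.37% in tumors 1 to 3 and 26.2 and 38.1% in tumors 4 and 5. Igha held 11.5, 29.9 and 17.04% in untreated d14 tumors and 3.60, 4.98 and 7.28% in treated ones, without overlap, so that its absolute level was higher and its share lower after treatment. These shares carry no test, and longer genes weigh more in them. Of BALB/c Ighg2a, the IgG shares hold only the reads that align to Ighg2c. Scaled per kilobase of exon, Ighm held 53.1 to 94.9% over all tumors, and Igha 2.66 to 5.65% in treated and 9.40 to 23.4% in untreated d14 tumors.

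**Figure D3:**
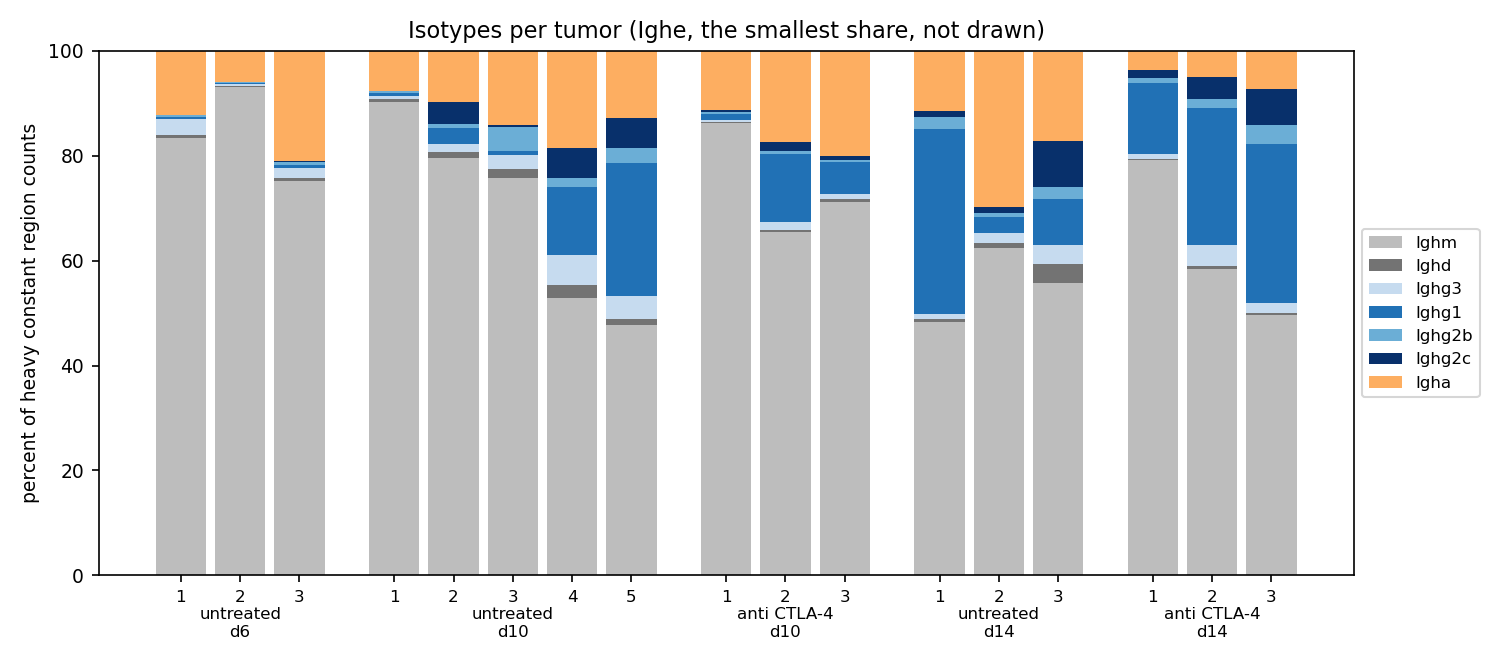
Share of each heavy constant gene among heavy constant counts (percent, stacked to 100, Ighe not drawn) in each tumor. IgM (gray) is the largest class in every tumor, IgG (blues) is widest in untreated d10 tumors 4 and 5, untreated d14 tumor 1 and treated d14 tumors 2 and 3, and Igha (orange) is narrower in treated than in untreated d14 tumors.

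The V segments with the largest increases after treatment at d14, at a mean of at least 1 normalized CPM and without overlap, were Ighv1-15, Igkv6-17, Igkv3-12, Ighv7-3 and Ighv1-18. Ighv1-15, whose V exon end is printed above, had 236, 404 and 1007 counts in treated tumors and 0, 0 and 2 in untreated d14 tumors. It had at most 5 counts in each of the other 11 tumors. Ighv7-3 was 40.2, 12.2 and 8.91 against 0.484, 0.348 and 1.06 normalized CPM (log2 5.03 ± 0.70, edgeR adjusted p = 0.00511). It was not new to these tumors, since d6 tumor 2 held 16.8.

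Ighv1-18 (10.2, 1.16 and 2.72 against 0.256, 0.0903 and 0.131) and Igkv3-12 (5.79, 17.7 and 2.69 against 0.121, 0.142 and 0.453) rose by 4.93 ± 0.89 and 5.17 ± 0.83 (edgeR adjusted p = 0.00836 and 0.00658). Igkv6-17 was 1.38, 16.4 and 0.663 against 0.148, 0.142 and 0.181 normalized CPM (log2 5.30 ± 1.28, edgeR adjusted p = 0.0191), so most of its reads came from treated tumor 2. Its log2 fold change was 2.75 without that tumor, and its call was lost without untreated tumor 1 or 2. With single tumors left out, the log2 fold change ran from 3.66 (without treated tumor 1) to 5.43 for Ighv1-18, from 4.17 (without treated tumor 2) to 6.10 (without untreated tumor 3) for Igkv3-12, and from 4.10 (without treated tumor 1) to 5.69 (without untreated tumor 3) for Ighv7-3, each with its call kept. Of the sequence windows of Igkv3-12 and Igkv6-17, 28.8% and 25.7% are shared with other genes, and of those of Ighv1-18 and Ighv1-15 10.9% and 5.05%.

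Of the B-1 pairs, both members of the VH11 pair rose after treatment, and of the VH12 pair Ighv12-3 alone passed the test, as lower. The difference between the pairs was not tested. Ighv11-2 was 16.7, 15.4 and 5.88 normalized CPM in treated d14 tumors and 0.605, 1.02 and 1.08 in untreated ones (log2 3.85 ± 0.43, edgeR adjusted p = 0.00436). Igkv14-126 was 55.6, 54.8 and 24.2 against 4.47, 3.67 and 5.39 (log2 3.35 ± 0.33, edgeR adjusted p = 0.00365). Every treated tumor was higher than every untreated one for both genes, and tumor 3 was the lowest treated tumor for both.

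Ighv11-1, the near copy of Ighv11-2, had 97, 39 and 14 counts in treated and 0, 0 and 0 in untreated d14 tumors, at least 44.1-fold higher against a limit of 3 counts over the group. Ighv11-2 had 1699, 1422 and 532 counts in the same treated tumors, and which part of the Ighv11-1 counts are misassigned Ighv11-2 reads was not tested. Ighv12-3 was the only member that fell, at 0.265, 0.152 and 0.0442 against 0.444, 0.413 and 0.644 normalized CPM (log2 -1.65 ± 0.52, edgeR adjusted p = 0.0444). That call was lost in 8 of 12 alternatives, among them leaving out untreated tumor 1, 2 or 3 or treated tumor 2 or 3, with log2 fold changes from -2.28 to -1.18. Igkv4-91, at 0.550, 1.35 and 0.309 against 1.59, 0.967 and 0.926, did not pass (log2 -0.62 ± 0.51, edgeR adjusted p = 0.382; it was at -1.35 without treated tumor 2 and at 0.26 with that tumor as the only treated sample).

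**Figure D4:**
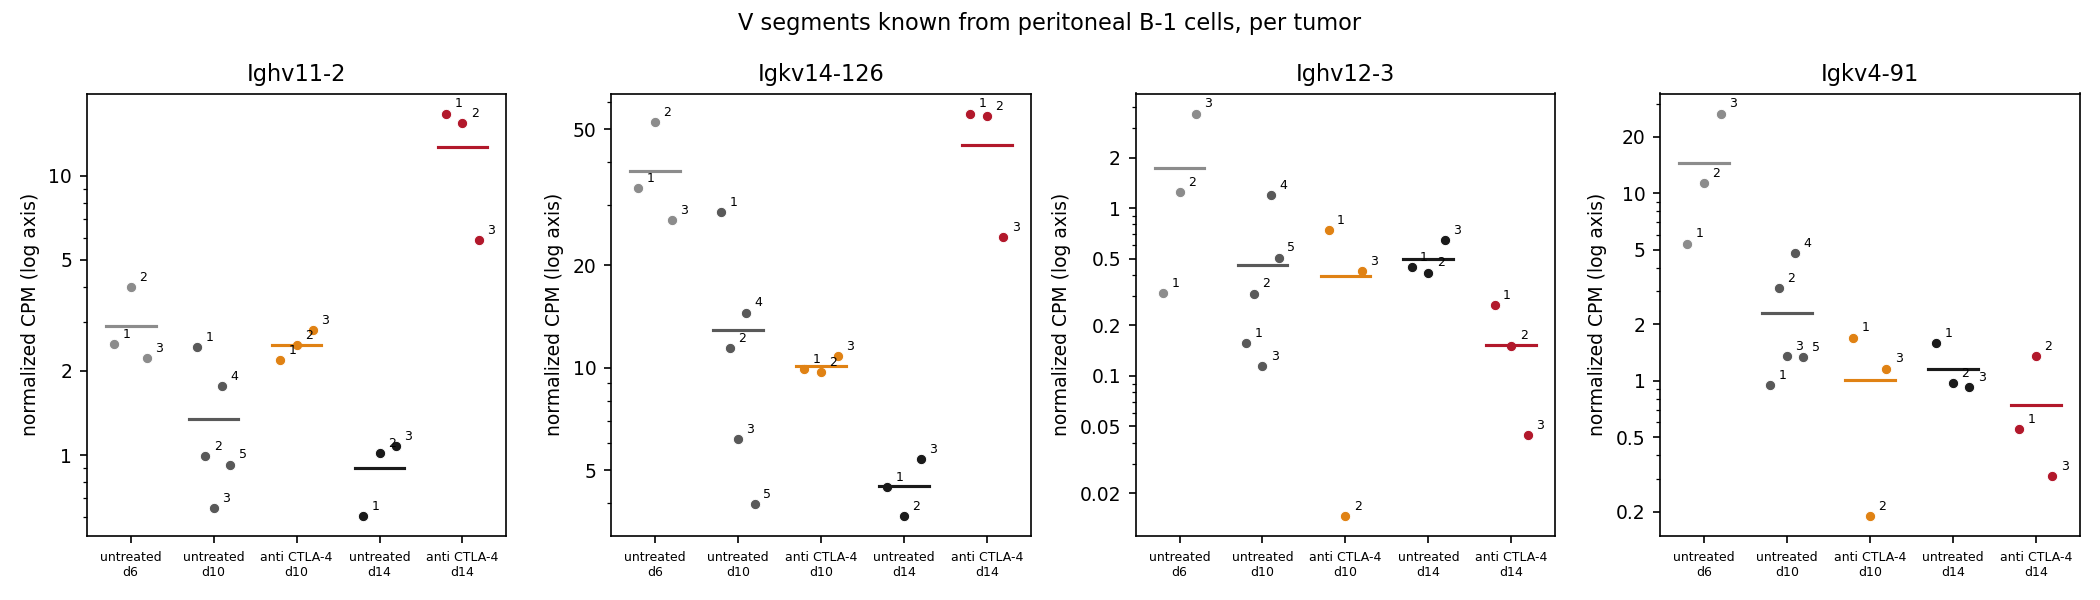
Normalized CPM (log axis) of the 4 V segments known from peritoneal B-1 cells in each tumor, numbered by replicate, with a bar at the group mean. Ighv11-2 is higher in treated d14 tumors than in all others, Igkv14-126 there overlaps d6 and untreated d10 tumor 1 (24.2 to 55.6 against 27.1 to 52.6 at d6), and Ighv12-3 is lower there than in untreated d14 tumors.

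Other tissue and immune markers moved with treatment at d14. The 8 pancreatic acinar markers summed to 3350, 4.03 and 1136 normalized CPM in treated d14 tumors 1 to 3 and to at most 2.45 in every other tumor. In tumor 2, with the low sum, the immunoglobulin total was 2373 normalized CPM, against 228.6 to 825.4 in untreated d14 tumors. With tumor 2 as the only treated sample, assumed to vary like the untreated ones, 2 members passed, Igkv14-126 and Igkv6-17, both higher, in an alternative added after seeing the data. They were the 2 genes called higher in it among all genes tested (0.0104%). The 4 T cell markers summed to 122.5 to 132.7 in treated and 42.8 to 78.3 in untreated d14 tumors. The 5 markers of lymph node or milky spot stroma summed to 84.5 to 104 and 56.3 to 77.1. The 4 mesothelial and AB12 markers summed to 742 to 845 in treated and 1127 to 1261 in untreated d14 tumors, without overlap. Of these, Krt19 was lower (336 to 397 against 605 to 717), whereas Wt1 was higher (23.8 to 44.1 against 7.71 to 14.1). The part of these tissues in the immunoglobulin rise was not tested.

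At d10 the treated tumors did not show that rise. No member of 128 tested passed in the edgeR test against untreated d10 tumors, where 0.0174% of all 17258 genes tested rose and 0% fell. At an unadjusted p below 0.05 there were 60 members, beside 13.5% of all genes tested. DESeq2 called 22 members, all lower, where it called 0.962% of all genes lower. The median log2 fold change of tested members was -1.75, against -0.01 for all genes tested. Ighm was 167, 154 and 118 normalized CPM in treated tumors and 74.5 to 775 in untreated ones (median 403; log2 -1.42 ± 0.60, edgeR adjusted p = 0.354). Igkc was 86.3, 114 and 76.2 against 81.8 to 925 (median 436; log2 -2.24 ± 0.62, edgeR adjusted p = 0.227). The treated values overlapped the untreated ones for both genes, near the low end for Igkc. The stroma markers summed to 43.9 to 56.4 in treated and 68.6 to 189 in untreated d10 tumors, and the adipocyte markers to at most 18.6 and 27.6 to 56.1, neither with overlap. Their part in the result was not tested.

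Ighd was 0.418, 1.12 and 0.652 against 1.71 to 34.5 normalized CPM (log2 -3.78 ± 1.03, edgeR adjusted p = 0.227), and Ighg2b 0.955, 1.56 and 0.883 against 2.06 to 26.2 (-3.11 ± 0.81, adjusted p = 0.217, edgeR). Neither overlapped. Set against untreated d10 tumors 1 to 3 alone, 13 members were lower and 3 higher in treated d10 tumors (4.85% and 1.94% of all genes tested). Set against tumors 4 and 5 alone, 26 were lower and none higher (0.21% and 0.35% of all genes). With the replicate block, over untreated tumors 1 to 3, 21 were lower and 4 higher (4.73% and 1.95% of all genes). Ighv11-2 was 2.18, 2.48 and 2.79 in treated and 0.647 to 2.43 in untreated d10 tumors (log2 0.88 ± 0.38, edgeR adjusted p = 0.357), which did not pass.

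The treatment effect itself differed between the days. Tested as an interaction, the effect was larger at d14 than at d10 for 83 of 163 tested members and smaller for none, where 9.67% of all genes tested were larger and 2.15% smaller. The median difference was 3.97 on the log2 scale, against -0.02 for all genes tested. For Igkc the difference was 4.36 ± 0.90 (edgeR adjusted p = 0.00673), for Ighm 4.21 ± 0.96 (adjusted p = 0.0104, edgeR), for Jchain 3.83 ± 0.87 (edgeR adjusted p = 0.0104), for Ighv11-2 2.96 ± 0.62 (edgeR adjusted p = 0.0075) and for Igkv14-126 3.68 ± 0.74 (edgeR adjusted p = 0.00618). With single tumors left out, the difference for Ighm ran from 3.41 to 4.51. Igha, Ighd, Ighg1 and Ighg2c did not pass. The number of members was 44 without treated d10 tumor 3 or untreated d14 tumor 2, 49 without treated d10 tumor 2, 50 without treated d14 tumor 1, 53 without untreated d14 tumor 1, and 55 without treated d10 tumor 1 or treated d14 tumor 2.

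In each tumor a few V segments held much of the V counts, and which ones differed from tumor to tumor. These counts hold only V reads that aligned uniquely to the reference genome, which is of another strain than the BALB/c mice. Which part of the V reads was lost in this way was not tested, so the shares describe the counted reads and not the whole repertoire. The leading IGHV segment held 9.46 to 37.4% of IGHV counts and the leading IGKV segment 8.39 to 33.8% of IGKV counts. Ighv7-1 led in 9 of 17 tumors, with its largest shares in untreated d10 tumor 1 (35.4%) and treated d10 tumor 1 (37.4%). Ighv11-2 led in treated d10 tumors 2 and 3, at 11.2 and 18.6%. Ighv1-11, Ighv1-67, Ighv10-1, Ighv14-3 and Ighv6-3 each led in 1 tumor, and in untreated d14 tumor 1 Ighv1-82 and Ighv4-1 tied with 99 counts each.

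In the kappa locus Igkv14-126 and Igkv15-103 led in 5 tumors each. The other leaders were seen in 1 tumor each: Igkv19-93 held 33.8% of IGKV counts in untreated d14 tumor 1, Igkv6-15 31.3% in treated d14 tumor 1 and Igkv6-13 22.4% in treated d14 tumor 3. Igkv12-38 held 17.5% in untreated d10 tumor 5, and Igkv16-104, Igkv3-2 and Igkv6-23 led in untreated d6 tumor 1, untreated d10 tumor 2 and untreated d14 tumor 3. In untreated d14 tumor 1 the J segment Igkj2 made up 82.4% of kappa J counts, against 16.8 to 56.7% in the other 16 tumors. Iglv1 led the lambda V segments in 13 tumors and Iglv2 in 4.

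**Figure D5:**
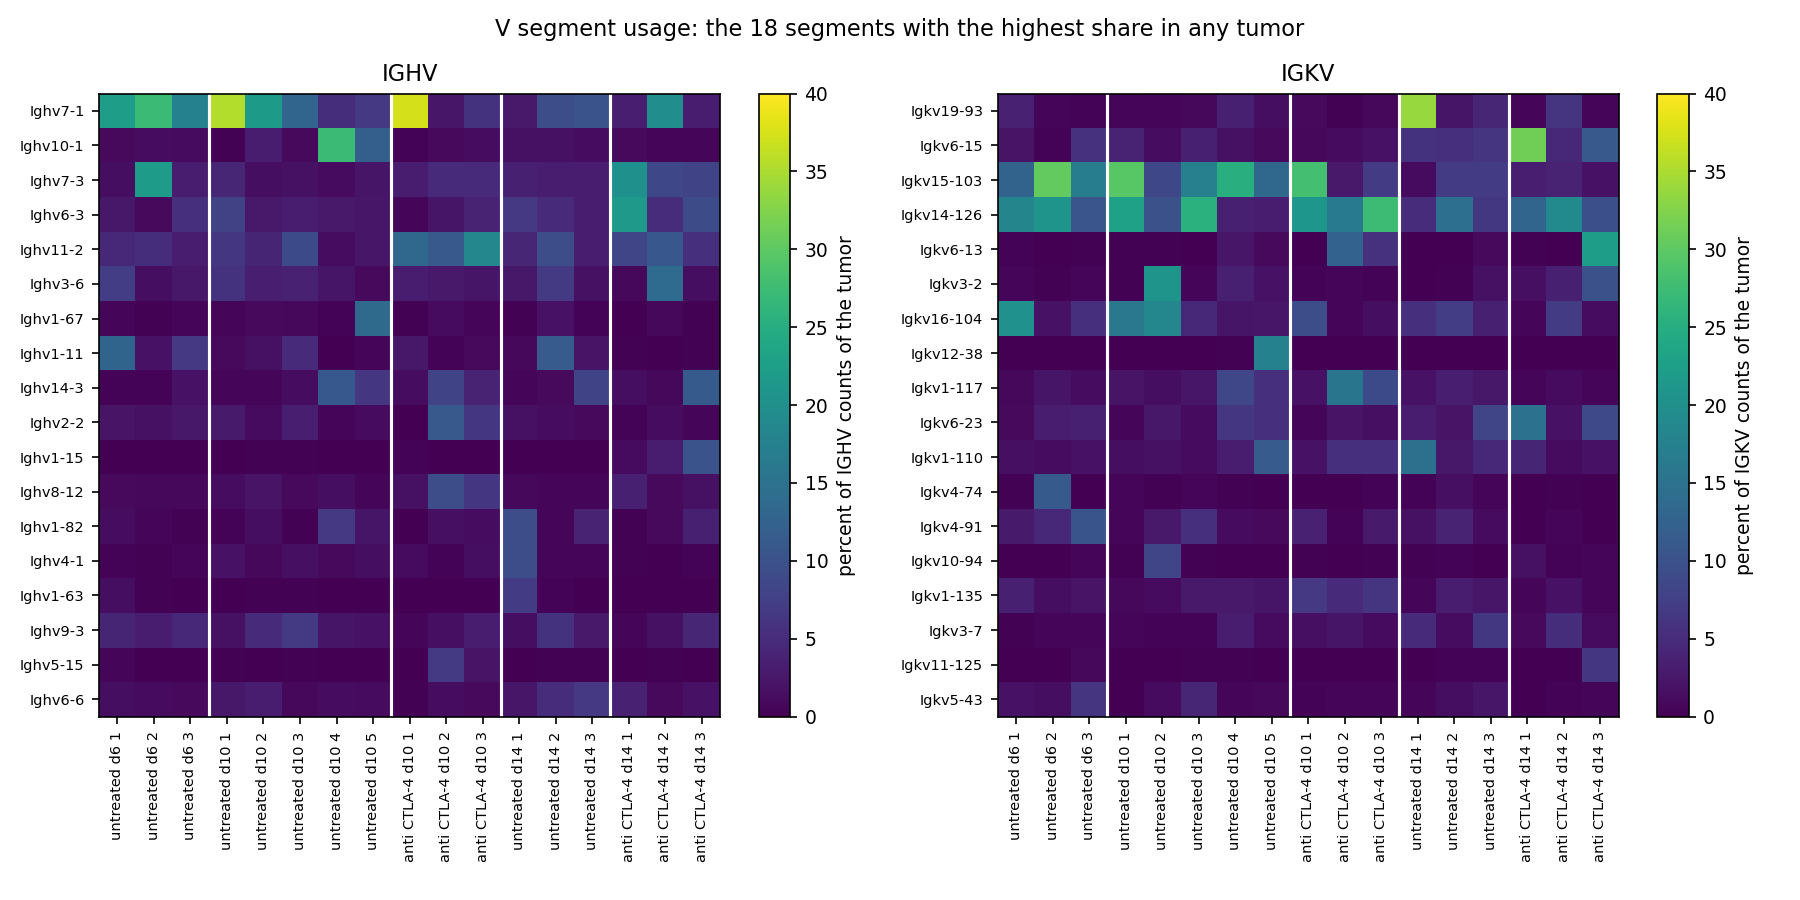
Share of each V segment among the IGHV counts (left) or IGKV counts (right) of each tumor, in percent, for the 18 segments per locus with the highest share in any tumor. Ighv7-1, Igkv15-103 and Igkv14-126 recur across tumors, whereas Igkv19-93 (33.8%), Igkv6-15 (31.3%) and Igkv12-38 (17.5%) stand out in a single tumor each.

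The number of V segments in use was put on a common scale as the effective number, the count of equally used segments with the same Shannon entropy. For IGHV it was 16.03 to 34.6 at d6, 17.99 to 36.5 at d10, 14.6 to 31.7 in treated d10, 31.9, 29.8 and 34.7 in untreated d14 and 18.1, 21.2 and 28.4 in treated d14 tumors. All treated d14 tumors were thus lower than all untreated ones, although they held 9768 to 20332 IGHV counts against 831 to 3338. Drawn down to 381 IGHV counts, the depth of the shallowest tumor, 43.9 to 50.6 segments were expected in treated and 50.9 to 56.0 in untreated d14 tumors. For IGKV the effective number was 14.0, 28.4 and 19.4 in treated and 14.2, 33.6 and 37.4 in untreated d14 tumors, which overlap. These values describe uniquely aligned counts per reference segment. They do not describe numbers of B cell clones, since a single plasma cell can give many reads.

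The pair of V segments of VH11 antibodies took a larger share of V counts in some groups than in others. Ighv11-2 held 3.10 to 5.23% of IGHV counts at d6, 1.32 to 8.92% at d10, 11.2 to 18.6% in treated d10, 3.21 to 9.51% in untreated d14 and 5.45 to 10.9% in treated d14 tumors. Treated d10 tumors did not overlap any other group. Igkv14-126 held 10.6 to 20.7%, 3.08 to 25.6%, 16.5 to 27.4%, 5.05 to 14.7% and 9.75 to 19.1% of IGKV counts in the same order of groups. Usage overlap, the summed smaller share of each segment between 2 tumors, had a median of 54.7% for IGHV and 55.2% for IGKV over the 22 pairs of tumors of 1 group, and of 49.2% and 47.5% over the 114 pairs from different groups.

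Genes of the cells that make and use antibody were read from lists chosen with earlier results of these data known. Their counts at d14 stand beside the 9.06% of all genes that rose after treatment, and those from d6 to d14 beside the 8.81% that fell and 10.2% that rose. Among 15 plasma cell genes, 4 rose and none fell after treatment at d14 (median log2 fold change 0.95): Derl3 (2.52 ± 0.53), which clears misfolded protein from the endoplasmic reticulum, Pou2af1 (1.79 ± 0.57), a coactivator of immunoglobulin transcription, Irf4 (1.38 ± 0.32), a transcription factor required for plasma cells, and Fkbp11 (1.36 ± 0.30), a secretory pathway chaperone. Derl3 was 4.03, 2.26 and 2.23 against 0.740, 0.142 and 0.634 normalized CPM, and Fkbp11 4.89, 2.87 and 2.86 against 1.86, 1.11 and 1.28. All 4 were highest in treated tumor 1, which also had the largest sum of the pancreatic acinar markers given above. The part of acinar tissue in these changes was not tested. From d6 to d14, Derl3, Fkbp11 and Tnfrsf17, the receptor BCMA that sustains plasma cells, fell. Xbp1, Prdm1 and Sdc1, which are not restricted to plasma cells, had log2 fold changes of 0.22, 0.36 and -0.03 after treatment at d14 and were not called.

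Among 19 B cell genes tested at d14, only Cd37, a tetraspanin of leukocytes, rose (log2 1.42 ± 0.27, edgeR adjusted p = 0.00994), a share below that of all genes, and the median was 0.83. Cd79a, a chain of the B cell receptor, was 9.69, 7.29 and 6.26 in treated and 2.60, 0.542 and 8.62 in untreated d14 tumors, which overlap (log2 1.01 ± 0.75, edgeR adjusted p = 0.33). Ms4a1, which encodes CD20, did not pass either. In treated against untreated d10 tumors none of the 19 passed, with a median of -2.67. The interaction was called for 11 of 19 (9.67% of all genes were larger at d14).

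Among 20 tested genes of germinal centers and class switching, 6 rose after treatment at d14, among them Il21 (log2 2.34 ± 0.53), Cd40lg (2.32 ± 0.56), Il6 (1.10 ± 0.29), Cd40 (1.09 ± 0.25) and Ifng (1.06 ± 0.25). Il21, Cd40lg and Ifng are made mainly by T and NK cells, and the T cell marker sums given above moved with them. From d6 to d14, 8 of 20 fell, led by Il4 (-3.97 ± 0.36) and Il5 (-3.71 ± 0.70), the cytokines of type 2 immunity that drive Ighg1 switching and B-1 cells, and only Cxcl13 rose (1.45 ± 0.38).

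Of 7 genes known from B-1 cells, Il5ra, Cd5 and Zbtb32 rose after treatment at d14 (log2 1.80 ± 0.44, 1.37 ± 0.24 and 1.25 ± 0.25), and Il5ra fell from d6 to d14 (-3.78 ± 0.39). T cells also express Cd5, and eosinophils also express Il5ra. Siglecg (0.99) and Spn (0.12) were not called. Bhlhe41, at 42.2 to 43.9 in treated and 51.3 to 55.2 normalized CPM in untreated d14 tumors, and Cd9, at 206 to 227 and 248 to 262, were lower without overlap, by less than 2-fold. The 7 genes summed to a mean of 390.2 normalized CPM in treated and 422.2 in untreated d14 tumors. Of 8 tested antibody receptor and transport genes, Fcgrt, Fcer1g and Fcgr3 rose at d14 (1.13 ± 0.20, 1.16 ± 0.21 and 1.15 ± 0.18). Of 6 genes of cells still assembling their antibody genes, Vpreb2 had no count, and Rag1, Rag2 and Igll1 were at most 0.0445 normalized CPM in every tumor. Vpreb1 ran from 0.0645 to 0.289 over all tumors. Dntt, which adds bases at the joints between segments, was 0.464 to 0.587 at d6 and 0.0387 to 0.151 in untreated d14 tumors. It was the one gene of the list tested from d6 to d14, and it fell (log2 -2.19 ± 0.45, edgeR adjusted p = 0.00342). Its treatment effect was larger at d14 than at d10 by 2.35 ± 0.74 (edgeR adjusted p = 0.0429).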

How the data were processed

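RNA-Seq of 17 tumors was analysed from the deposited table of raw counts per gene. According to the study's methods and processing notes, the authors prepared KAPA RNA HyperPrep libraries, sequenced pairs of 75 or 100 bases, aligned them to GRCm38/mm10 with TopHat2 2.0.14, retained reads with a unique position and obtained counts per Gencode vM21 gene from HTSeq. Whether counting used strand is not given in the sources used here. The members and all gene lists were chosen with earlier results of these data known.

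All genes were tested with edgeR 4.0.16 in R 4.3.3 (filterByExpr, TMM, quasi-likelihood test, Benjamini-Hochberg adjustment over all tested genes, only the groups compared). A member was called when its adjusted p was under 0.05 and its log2 fold change exceeded 1 in either direction. The interaction used the 4 groups of d10 and d14. Normalized CPM used TMM factors over all 17 libraries. Totals, shares and V usage were computed in Python 3.11.15 and carry no test. On simulated counts the tests recovered the changed genes. Counts of single segments carry counting error, and intervals were not computed for sums over replicated tumors. Replicate pairs differed beyond sampling noise (chi-square per gene 18.5 to 268). Named were all constant genes, Jchain, J segments as sums, the 4 B-1 segments, leading V segments, and up to 5 called members per direction with the largest change, a mean of at least 1 normalized CPM and no overlap (not applied to the interaction, which compares 4 groups). Alternatives were DESeq2 1.42.0, other count filters, subsets of d10 tumors, one fit of all groups, a replicate block and leaving out single tumors. 164 pseudogene segments were not used.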

Additional observations from a re-analysis of the deposited data

Results flagged for a closer look

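Untreated d10 tumor 4 stood far above the other 4 untreated d10 tumors in 6 of 37 measures examined, a gap that chance gives in about 1 of 20 measures. Its V segments summed to 574.3 normalized CPM (next highest 175.7). Igha was 271.7 (52.43), Ighd 34.51 (5.465), Ighe 0.7128 (0.1393), Ighg2c 82.17 (23.01) and Ighg3 84.61 (17.74), each in normalized CPM with the next highest tumor in parentheses. The 6 measures come from 1 tumor and are not independent of each other.

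The effect of anti CTLA-4 differed between d14 and d10 by the interaction test for 83 members, all larger at d14. Among constant genes and Jchain the log2 difference was 6.2963 for Ighe, 5.8079 for Ighg3, 5.2265 for Ighg2b, 4.7079 for Iglc1, 4.3641 for Igkc, 4.2058 for Ighm, 4.1152 for Iglc2, 3.8338 for Jchain and 3.0903 for Iglc3 (edgeR adjusted p from 0.00673 to 0.0267). With single tumors left out, the difference ran from 4.28 to 6.84 for Ighg3, 4.46 to 5.76 for Ighg2b and 3.58 to 5.10 for Iglc1. For Ighm it ran from 3.41 to 4.51 and for Iglc2 from 2.68 to 4.84. Among V segments the log2 difference with all tumors was 3.6844 for Igkv14-126 and 2.9566 for Ighv11-2. The 5 largest among called members averaging 1 normalized CPM or more (overlap was not a condition, since the interaction compares 4 groups) were Igkv12-38 (13.5872), Igkv3-2 (9.6318), Igkv11-125 (8.9741), Igkv10-94 (8.955) and Ighv1-15 (8.5733). These fits rest on few counts in some groups and on single tumors. Igkv12-38 had 1520 counts in untreated d10 tumor 5, 87 in tumor 4 and at most 23 elsewhere, and Igkv11-125 had 1404 in treated d14 tumor 3. Igkv10-94 had 621 counts in untreated d10 tumor 2 and 807 in treated d14 tumor 1. Ighe had 1, 0 and 2 counts in treated d10 tumors. Its call was lost in 6 of 20 alternatives, without any 1 of the treated d10 tumors, untreated d14 tumor 1 or treated d14 tumor 1 and with treated d14 tumor 2 alone, and its difference ran from 4.93 to 7.84. The calls of Ighg3 and Iglc2 were each lost in 6 of 21 alternatives, that of Iglc3 in 4 of 21 and that of Igkv10-94 in 4 of 20. The call of Igkv12-38 was lost in 10 of 19 alternatives and that of Igkv11-125 in 9 of 17. Without untreated d10 tumor 5 the difference for Igkv12-38 was 9.51. Without treated d14 tumor 3 the difference for Igkv11-125 was 2.48. With other single tumors left out, these 2 differences reached 15.5 and 10.2. The difference ran from 5.91 to 9.59 for Igkv10-94, from 8.75 to 12.51 for Igkv3-2 and from 7.71 to 11.08 for Ighv1-15.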

How the results depend on the processing

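The log2 ratios of the immunoglobulin totals moved by less than the spread between tumors in all 58 alternatives. For d10 against d6 that spread was 1.38 and for d14 against d10 1.69, larger than the changes themselves. For these comparisons the rule cannot show that the size held. Leaving out single tumors, the log2 ratio of mean totals ran from -2.37 to -1.66 for d14 against d6 (-2.05 with all tumors), 1.91 to 2.64 for treated against untreated d14 (2.31), -2.07 to -1.22 for treated against untreated d10 (-1.80), -1.38 to -0.52 for d10 against d6 (-0.80) and -1.57 to -0.67 for d14 against d10 (-1.25). Counts of called members depended more on the setting, and in 41 of 94 alternatives moved by over 1.5 times. The cause was not tested unless fewer genes or tumors entered.

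For d10 against d6 (9 members), DESeq2 called 19, a filter of at least 1 count 16, at least 10 counts in every library 5, d10 tumors 1 to 3 alone 43, tumors 4 and 5 alone 39, 1 fit of all groups 17, and leaving out single tumors gave 3 to 31. For d14 against d10 (5), all lower except 1 member with d14 tumor 1 or d10 tumor 4 left out, the same settings gave 20 by DESeq2, 10, 1, 42 with d10 tumors 4 and 5 alone, 25 in 1 fit and 0 to 17. For d14 against d6 (72), at least 10 counts in every library left 42 and leaving out tumors gave 51 to 92. For treated against untreated d14 (77), these were 41 and 49 to 96, and treated tumor 2 alone gave 2. For treated against untreated d10 (0), DESeq2 gave 22, at least 1 count 1 (Igkj2), d10 tumors 1 to 3 alone 16, tumors 4 and 5 alone 26, and leaving out tumors 0. For the interaction (83), at least 10 counts in every library left 29, treated d14 tumor 2 alone 23, and leaving out tumors gave 44 to 99. Over all genes tested, the share called in these alternatives was 4.04 to 16.7% for d10 against d6, 1.56 to 11.3% for d14 against d10, 13.6 to 19.96% for d14 against d6, 0.0104 to 15.2% for treated against untreated d14, 0 to 6.79% for d10 and 3.87 to 17.2% for the interaction.

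Replicate numbers did not pair the tumors (correlations of same-numbered tumors -0.298 to 0.161). With a replicate block, which leaves out untreated d10 tumors 4 and 5, the counts were 33 for d10 against d6, 3 for d14 against d10 and 25 for treated against untreated d10, and within 1.5 times elsewhere. For 58 named fold changes, 740 of 859 alternatives kept direction and call, 109 lost the call, 7 gained it and 3 reversed: Ighd in treated against untreated d14 to -0.27 and -0.46 without untreated d14 tumor 1 or 2 (range -0.46 to 1.64 over tumors left out), and Igkv4-91 there to 0.26 with treated tumor 2 alone. With inverse Simpson in place of Shannon entropy or with expected numbers at common depth, which are other scales, group medians of V spread moved beyond the spread between tumors in 16 of 20 cases. Segments of few counts limit all V comparisons, and of the 207 members 128 to 147 could be tested in each comparison of 2 groups.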
